A study of Mus musculus with 23 samples.

Results

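Rbm44, Pou5f2 and Rpl39l are 3 protein-coding mouse genes known mainly from germ cells, followed here in sorted blood progenitors. They were chosen because earlier results of the same arrays showed higher values in knockout than in wild-type cells, above all without p110δ. Each gene had 1 transcript cluster, the array's probe group for a gene, found by its symbol in the authors' comparison tables. These were 3 of 65956 clusters other than array controls, and all 3 passed the filter on low values, which kept 32978. The clusters were TC0100000885.mm.1 for Rbm44, TC1300000942.mm.1 for Pou5f2 and TC1600000109.mm.1 for Rpl39l. Their identifiers place them on chromosomes 1, 13 and 16, as does the RefSeq table for the 3 symbols.

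Rbm44 encodes an RNA-binding protein that in mouse sits at the intercellular bridges joining developing germ cells. Pou5f2, also called Sprm1, encodes a POU-domain transcription factor of mouse male germ cells and is a relative of the pluripotency factor gene Pou5f1. Rpl39l encodes a paralog of the ribosomal protein Rpl39 that mouse spermatogenic cells build into their ribosomes. None of the 3 is a textbook gene of blood stem cells.

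The arrays compare 2 sorted cell populations of pooled bone marrow transplant recipients, hematopoietic stem cells (HSC) and the lymphoid-primed multipotent progenitors (LMPP) that arise from them. HSC were gated as Lin-ckit+Flk2-CD150+CD48- cells and LMPP as cells with the reverse Flk2, CD150 and CD48 pattern. The marrow was labelled WT, p110α-/- (here alphaKO), p110δ-/- (deltaKO) or p110αδ DKO (DKO). Both proteins are catalytic subunits of phosphoinositide 3-kinase, a lipid kinase that relays growth factor and cytokine signals. The sources used here give no age, no strain and no account of how each gene was deleted. There were 23 samples, each on 1 Affymetrix mouse array, with 3 in each of the 8 groups except LMPP WT, which had 2. Each group held 1 female sample, and the others were male. The labels do not say that replicates are separate pools of animals, so a p-value here reflects only the scatter among these arrays, some of which may be technical.

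Values are log2 RMA expression values, where 1 unit is a doubling of signal. The array median over all clusters lay between 4.83 and 5.04 on 22 arrays and at 5.29 on LMPP WT replicate 2, which stood apart from the rest. The lowest of the 22 was HSC WT replicate 3. The endothelial and stem cell gene Tek had a level in HSC of 10.05 ± 0.31 (SD, n = 12), against 6.43 ± 0.66 (SD, n = 11) for LMPP, in the direction of the sort. Pik3ca, Pik3cd and the genes of the sorted surface markers were not analysed here. Fewer cells of a type and less RNA per cell cannot be told apart in such bulk samples.

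The start regions of 2 of the 3 genes are shown, since these are the stretches from which transcription of the genes begins. Both come from RefSeq on build GRCm38.p6 and run from 250 bases before to 50 bases after an annotated start, on the gene's strand. The Pou5f2 region is chr13:78024652-78024951, on the plus strand, and the Rpl39l region is chr16:10169978-10170277, also on the plus strand. Capitals mark the GC box GGGCGG and the ETS core CCGGAAG, each on either strand.
Pou5f2: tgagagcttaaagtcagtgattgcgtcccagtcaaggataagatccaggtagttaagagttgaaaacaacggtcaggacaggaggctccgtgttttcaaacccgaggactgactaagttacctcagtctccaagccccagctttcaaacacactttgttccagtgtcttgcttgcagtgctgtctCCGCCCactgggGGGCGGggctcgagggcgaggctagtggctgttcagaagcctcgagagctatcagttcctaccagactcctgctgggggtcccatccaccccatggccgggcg
Rpl39l: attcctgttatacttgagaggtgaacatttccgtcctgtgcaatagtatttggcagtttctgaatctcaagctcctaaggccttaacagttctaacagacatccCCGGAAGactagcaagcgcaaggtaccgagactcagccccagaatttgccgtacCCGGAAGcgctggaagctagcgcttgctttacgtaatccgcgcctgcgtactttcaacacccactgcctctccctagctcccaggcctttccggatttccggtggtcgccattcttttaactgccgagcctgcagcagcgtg
The Pou5f2 region held 2 GC boxes, a motif found in 35.7% of 32851 regions of that length, and no ETS core. The Rpl39l region held 2 ETS cores, a motif found in 8.86% of them, and no GC box. Neither held the FOXO motif GTAAACA (3.65% of regions), the E-box CACGTG (7.15%), the octamer ATGCAAAT (1.74%), the TATA motif TATAAA (13.6%) or the CRE motif TGACGTCA (1.79%), on either strand. No 2 of the matches shown overlapped. The Pou5f2 region held 11 CpG dinucleotides and the Rpl39l region 17, against a median of 7.0 over all regions, and 58.6% and 68.6% of regions held fewer. These are matches of letters in a window and do not show that a factor binds there.

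Rbm44 had its highest means in LMPP without p110δ. In LMPP deltaKO it measured 8.27, 7.25 and 7.43, in LMPP DKO 6.95, 7.76 and 7.19, in LMPP alphaKO 5.95, 6.16 and 7.15, and in LMPP WT 6.46 and 6.10. All 6 arrays without p110δ lay above both WT arrays, and 5 of the 6 also lay above every array with p110δ, the exception being LMPP DKO replicate 1, which lay below LMPP alphaKO replicate 3. The means were 7.65 ± 0.55 (SD, n = 3) in deltaKO, 7.30 ± 0.42 (SD, n = 3) in DKO, 6.42 ± 0.64 (SD, n = 3) in alphaKO, against 6.28 ± 0.25 (SD, n = 2) for WT. As log2 differences from WT these were 1.37 for deltaKO, 1.02 for DKO and 0.14 for alphaKO. Without LMPP WT replicate 2 the 3 differences were 1.187, 0.84 and -0.04. Rbm44 was the 1 gene of the 3 whose knockout arrays lay wholly above LMPP WT in deltaKO, where 15.2% of all tested clusters did so, and again in DKO, where 14.7% did. These values chose the gene, so they are given without a test.

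In HSC the same gene had smaller differences and the groups overlapped. Rbm44 measured 7.42, 6.30 and 7.50 in HSC deltaKO, 6.91, 6.87 and 6.75 in HSC DKO, 6.39, 5.82 and 5.98 in HSC alphaKO, and 6.90, 5.73 and 6.27 in HSC WT. HSC WT replicate 1 lay among the DKO arrays, and HSC deltaKO replicate 2 lay among the WT arrays. The means were 7.08 ± 0.67 in deltaKO, 6.84 ± 0.08 in DKO, 6.06 ± 0.29 in alphaKO and 6.30 ± 0.59 in WT (SD, n = 3 each). The differences from WT were 0.78 in deltaKO, 0.54 in DKO and -0.24 in alphaKO. Without HSC WT replicate 2 they were 0.49, 0.26 and -0.52, and without HSC WT replicate 1 they were 1.08, 0.84 and 0.065. Against alphaKO, which keeps p110δ, every HSC DKO array was higher, as in 6.34% of tested clusters, with a difference of 0.78. The deltaKO arrays lay wholly above alphaKO for 0 of the 3 genes in HSC, where 6.76% of clusters did so, and for Rbm44 in LMPP, where 7.0% did, by 1.228. DKO means lay below deltaKO means by 0.23 in HSC and 0.35 in LMPP on the log2 scale, with overlapping arrays in both.

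Pou5f2 differed from WT in HSC, and there without either isoform. It measured 5.82, 5.73 and 5.54 in HSC WT, 6.45, 6.09 and 7.17 in HSC alphaKO, 6.82, 7.04 and 6.60 in HSC deltaKO, and 6.53, 6.81 and 7.52 in HSC DKO. All 9 knockout arrays lay above all 3 WT arrays, while the 3 knockout groups overlapped each other. The means were 5.70 ± 0.14 in WT, 6.57 ± 0.55 in alphaKO, 6.82 ± 0.22 in deltaKO and 6.95 ± 0.51 in DKO (SD, n = 3 each). The log2 differences from WT were 0.87, 1.121 and 1.25, and 0.79, 1.04 and 1.175 without HSC WT replicate 3. In its order of means alphaKO stood nearest to WT, but deltaKO lay only 0.25 and DKO only 0.38 above alphaKO, less than the SD of the alphaKO arrays. The choice of the gene for higher values above all without p110δ therefore describes Pou5f2 less closely than Rbm44.

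In LMPP Pou5f2 showed no such separation. Its values were 6.47 and 5.99 in WT, 6.22, 6.22 and 6.63 in alphaKO, 6.23, 7.65 and 6.32 in deltaKO, and 6.16, 5.84 and 7.17 in DKO. In deltaKO and in DKO 1 array was high and the other 2 lay within or below the range of WT. The means were 6.23 ± 0.34 (SD, n = 2), 6.36 ± 0.23, 6.73 ± 0.79 and 6.39 ± 0.69 (SD, n = 3 each), so that every difference from WT, at most 0.50, was smaller than the SD of the deltaKO or DKO arrays. Without LMPP WT replicate 2 the differences were -0.12 in alphaKO, 0.26 in deltaKO and -0.08 in DKO, and without LMPP deltaKO replicate 2 the deltaKO difference was 0.046. The Pou5f2 gene overlaps Fam172a in the RefSeq table, and no strand is given there, so the array's probes for the 2 genes were not separated here. Rbm44 overlaps the predicted gene Gm35443 in the same way, and Rpl39l overlaps no gene of that table.

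Rpl39l was lowest and most even in HSC WT. It measured 5.01, 5.03 and 5.01 there, 6.29, 6.35 and 6.02 in HSC deltaKO, 5.63, 5.81 and 5.32 in HSC DKO, and 5.03, 5.08 and 7.43 in HSC alphaKO. The deltaKO and DKO arrays all lay above WT, and the DKO arrays all lay below the deltaKO arrays. The means were 5.02 ± 0.01 in WT, 6.22 ± 0.18 in deltaKO, 5.58 ± 0.25 in DKO and 5.85 ± 1.37 in alphaKO (SD, n = 3 each). The differences from WT were 1.205 in deltaKO and 0.57 in DKO on the log2 scale. The alphaKO difference of 0.83 rested on HSC alphaKO replicate 3, the highest Rpl39l value of all 23 arrays, and was 0.04 without it. The HSC WT values of Rpl39l lay within the range of the array medians, near the low end of the clusters tested.

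With Pou5f2 and Rpl39l both counted, 2 of the 3 genes had every knockout array above every HSC WT array in each HSC comparison. Over all tested clusters that held for 4.94% in alphaKO, 7.51% in deltaKO and 9.07% in DKO, shares from which nothing is read because the genes were chosen on this contrast. In alphaKO the count for Rpl39l rests on a near tie, since its lowest array, at 5.0283, lay barely above the highest WT array, at 5.02722. Setting the arrays without p110δ against those with it, 0 of the 3 genes were wholly higher in HSC, where 1.0% of clusters were, and 0 of the 3 in LMPP, where 0.743% were.

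In LMPP Rpl39l stayed low in all groups. It measured 4.99 and 5.60 in WT, 4.99, 5.22 and 5.60 in alphaKO, 5.22, 5.85 and 5.65 in deltaKO, and 5.04, 4.96 and 5.14 in DKO. The higher WT value came from LMPP WT replicate 2, and the DKO arrays were again all below the deltaKO arrays. The means were 5.30 ± 0.43 (SD, n = 2), 5.27 ± 0.31, 5.57 ± 0.32 and 5.05 ± 0.09 (SD, n = 3 each). The differences from WT were -0.02 in alphaKO, 0.28 in deltaKO and -0.25 in DKO, and 0.28, 0.58 and 0.05 without LMPP WT replicate 2. Between DKO and deltaKO the Rpl39l difference was -0.64 in HSC and -0.53 in LMPP, and every DKO array was below every deltaKO array in 3.27% of tested clusters in HSC and 5.32% in LMPP. DKO arrays lay wholly above deltaKO arrays for 0 of the 3 genes in either cell type, against 3.84% of clusters in HSC and 3.83% in LMPP.

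**Figure D1:**
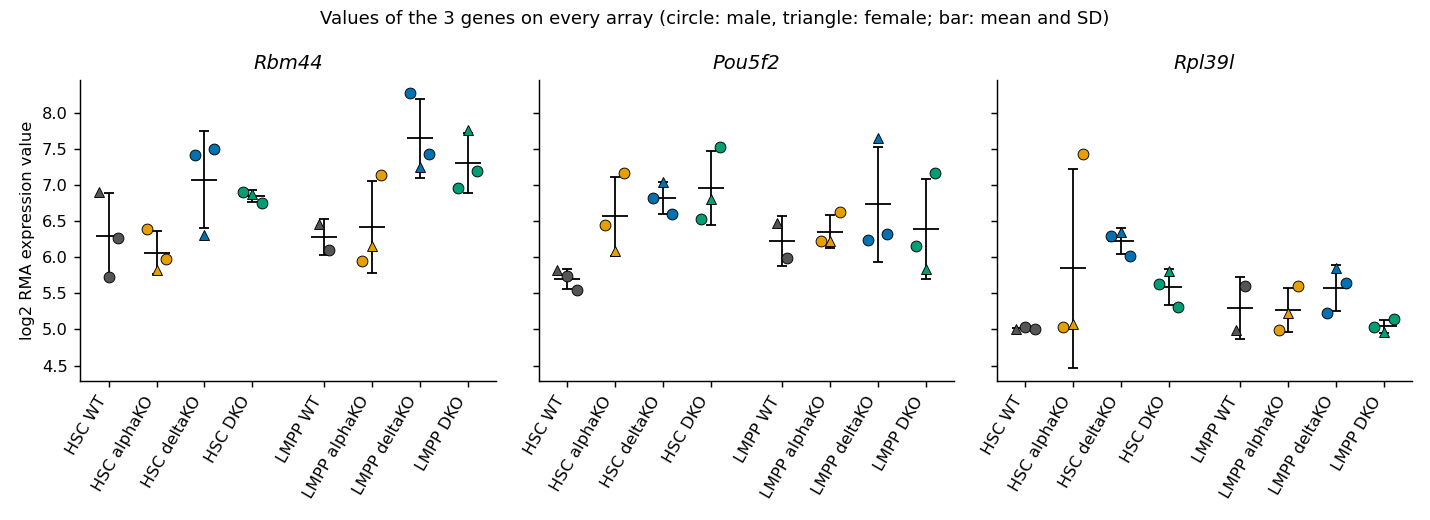
Log2 RMA expression value (vertical axis) of Rbm44, Pou5f2 and Rpl39l on each of the 23 arrays, by cell type and genotype, with circles for male samples, triangles for female samples and black bars for the mean and SD. Rbm44 is highest in LMPP deltaKO, Pou5f2 is lowest in HSC WT, and Rpl39l has 1 alphaKO array at 7.43.

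The authors' deposited table for HSC deltaKO listed Pou5f2 at a fold of 2.15 and Rpl39l at 2.46, that for HSC DKO listed Pou5f2 at 2.23, and that for LMPP deltaKO listed Rbm44 at 2.09. The smallest fold in any of the authors' deposited tables was 2.01, and their FDR p-values for these 4 entries ranged from 0.778639 to 0.918061, with unadjusted p-values from 0.000318 to 0.049781. The authors' biweight averages for Rbm44 in LMPP deltaKO and WT, 7.35 and 6.28 in the authors' deposited table, differ by less than the means above. Among entries not listed, the highest linear folds by means were 2.03 for Rbm44 in LMPP DKO, 1.83 for Pou5f2 and 1.78 for Rpl39l in HSC alphaKO, which keeps p110δ, and 1.71 for Rbm44 in HSC deltaKO.

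**Figure D2:**
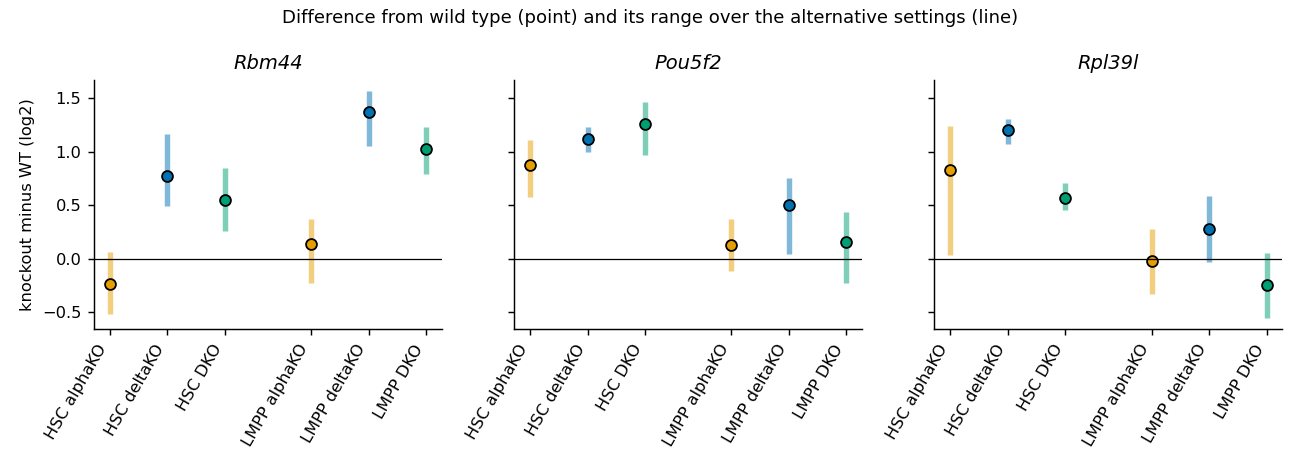
Difference of each knockout group mean from its WT mean on the log2 scale (points) for the 3 genes, with the line spanning its lowest and highest value when 1 array was left out, when the arrays were scaled again or when medians replaced means. The line for Rpl39l in HSC alphaKO runs from 0.04 to 1.24, and that for Rbm44 in LMPP deltaKO stays above 1.

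The sorted cell types were compared over all 8 groups, with each genotype weighted equally. These averages hold the knockout groups on which the genes were chosen, so the differences are given as a description, without p-values. The SEs and 95% intervals show the scatter of the arrays and are not read as a test. None of the 3 passed the limma threshold, while 23.3% of all 32978 tested clusters did, 12.8% higher and 10.5% lower in HSC, and nothing is read from these shares. Averaged over genotypes, Rbm44 was at 6.57 in HSC and 6.91 in LMPP, a difference of -0.34 (SE 0.19, 95% interval -0.75 to 0.06). Rpl39l was at 5.67 in HSC and 5.30 in LMPP, a difference of 0.37 (SE 0.22, 95% interval -0.09 to 0.83). Without HSC alphaKO replicate 3 the Rpl39l difference was 0.17. Pou5f2 was at 6.51 and 6.43, a difference of 0.08 (SE 0.20, 95% interval -0.33 to 0.50). In the WT groups alone each difference had the other sign, at 0.017 for Rbm44, -0.53 for Pou5f2 and -0.28 for Rpl39l. LMPP WT had 2 arrays, and for Rbm44 and Rpl39l the sign rests on LMPP WT replicate 2. LMPP WT replicate 1 was at 6.46 and 4.99 for these genes, against HSC WT means of 6.30 and 5.02.

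Germ cell genes can differ between the sexes, so male and female samples were compared with the group means held in the fit. The 15 male arrays had Rbm44 values from 5.73 to 8.27 and the 8 female arrays values from 5.82 to 7.76. Rpl39l ranged from 4.99 to 7.43 in male and from 4.96 to 6.35 in female arrays, and Pou5f2 from 5.54 to 7.52 and from 5.82 to 7.65, so the sexes overlapped for every gene. The male minus female difference was 0.08 (95% interval -0.36 to 0.52) for Rbm44, -0.04 (-0.48 to 0.41) for Pou5f2 and 0.11 (-0.38 to 0.60) for Rpl39l, with limma adjusted p of 0.955, 0.980 and 0.944. Over all clusters 25 differed between the sexes, 0.0758% of those tested, with 0.0364% higher in male and 0.0394% lower in male samples. An unadjusted limma p under 0.05 was found for 2613 of the 32978 tested clusters, far more than the 25 that passed adjustment. None of them was Rbm44, Pou5f2 or Rpl39l, from which nothing is read for so few genes. The difference of the sex effect between HSC and LMPP had a limma adjusted p of 0.999 for each gene.

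**Figure D3:**
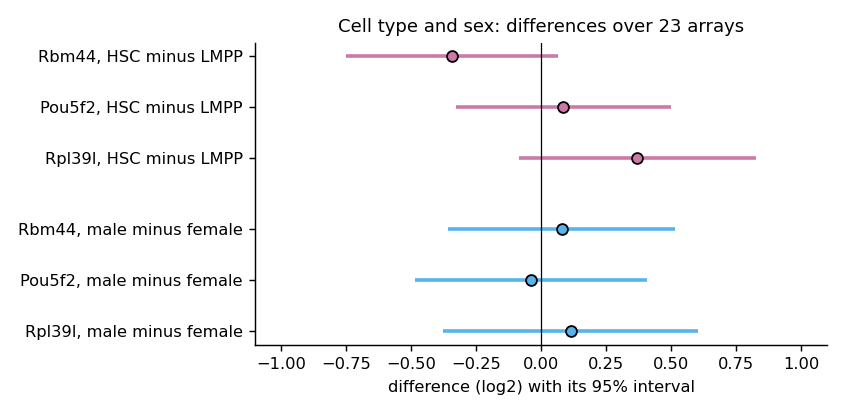
Differences on the log2 scale between HSC and LMPP and between male and female samples for the 3 genes, with points for the limma estimate over 23 arrays and lines for its 95% interval. All 6 intervals include 0. The differences between HSC and LMPP hold the groups on which the genes were chosen, so their intervals are not read as a test.

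The 3 genes did not share 1 pattern. Over the 8 group means Pearson's r was 0.73 between Pou5f2 and Rpl39l, 0.50 between Rbm44 and Pou5f2 and 0.13 between Rbm44 and Rpl39l, as a description of points that share the arrays and the choice of the genes. Deviations of arrays from their group means were compared over 23 arrays in 3 pairs. The choice did not use how 2 genes varied together. It did depend on the spread within groups, through the p-values of the authors' tables. Pou5f2 and Rpl39l had a Pearson r of 0.43 (permutation p within groups 0.109, adjusted 0.328) and a Spearman rho of 0.37 (permutation p 0.172, adjusted 0.516), so no relation passed. Without the 2 arrays farthest from the median for Pou5f2 the r was 0.46, and it was 0.57 over the 12 HSC arrays and 0.42 over the 11 LMPP arrays. Without HSC alphaKO replicate 3 it was 0.23. In 5 of the 8 groups the same array was highest for both genes, among them HSC alphaKO replicate 3 at 7.17 for Pou5f2 and 7.43 for Rpl39l. The count was 3 of 8 for Rbm44 with Pou5f2 and 1 of 8 for Rbm44 with Rpl39l. In groups of 2 or 3 arrays some matches arise without any relation, and these counts were not tested. Rbm44 had an r of -0.20 with Pou5f2 (rho -0.16, permutation p 0.431 and 0.517, adjusted 0.565 and 0.517) and of -0.12 with Rpl39l (rho -0.16, permutation p 0.565 and 0.498, adjusted 0.565 and 0.517). Those were -0.20 and -0.15 without the 2 farthest arrays, -0.17 and -0.13 over HSC arrays, and -0.22 and -0.11 over LMPP arrays.

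**Figure D4:**
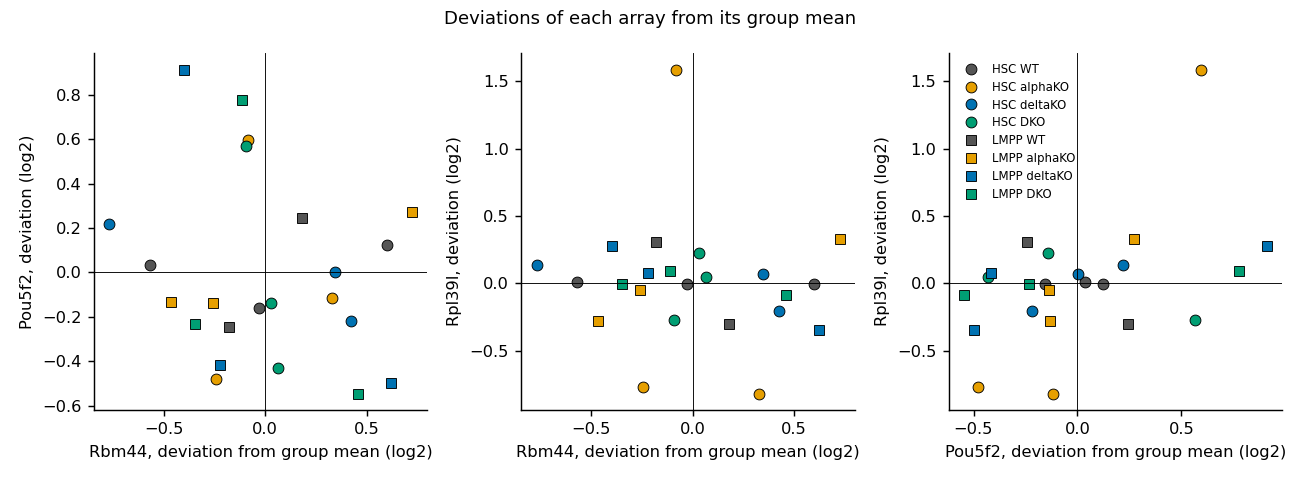
Deviation of each array from its group mean on the log2 scale for the 3 pairs of genes, with circles for HSC, squares for LMPP and a colour for each genotype. The array at the upper right of the last panel is HSC alphaKO replicate 3, and none of the 3 relations passed the permutation test.

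Named genes whose means followed each gene most closely over the 8 groups were taken from 276 other named and tested clusters. Rbm44 was most like the zinc finger gene Zfp85, at r = 0.96 over 8 group means, and then Polg2, which encodes the accessory subunit of the mitochondrial DNA polymerase, at 0.90. The zinc finger genes Zfp748 and Zfp951 were at 0.88 and 0.84. Zfp85 ranged from 6.63 in LMPP WT to 7.63 in LMPP deltaKO, and Polg2 from 9.11 in HSC alphaKO to 11.09 in HSC deltaKO. Over all tested clusters, named or not, 19 were at least as like Rbm44 as Zfp85 was. Pou5f2 was less closely followed, with 0.76 for the endosomal chloride transporter gene Clcn6, 0.74 for the pseudogene Tdgf1-ps2, 0.73 for Rpl39l, 0.72 for Zfp951 and 0.70 for the GTPase gene Gimap6. Rpl39l was most like Phxr4 at 0.78 and Tdgf1-ps2 at 0.77, then Pou5f2 at 0.73, Clcn6 at 0.72 and the transcript ST7-OT4_3 at 0.67. Over all tested clusters, 656 were at least as like Pou5f2 as Clcn6 was, and 603 were at least as like Rpl39l as Phxr4 was. All of the like genes named here carry a name only because the authors listed them as different from WT on the same arrays. A shared difference from WT was thus built into the comparison. Within groups, Rbm44 and Zfp85 had an r of -0.25 over the 23 arrays, given as a description.

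**Figure D5:**
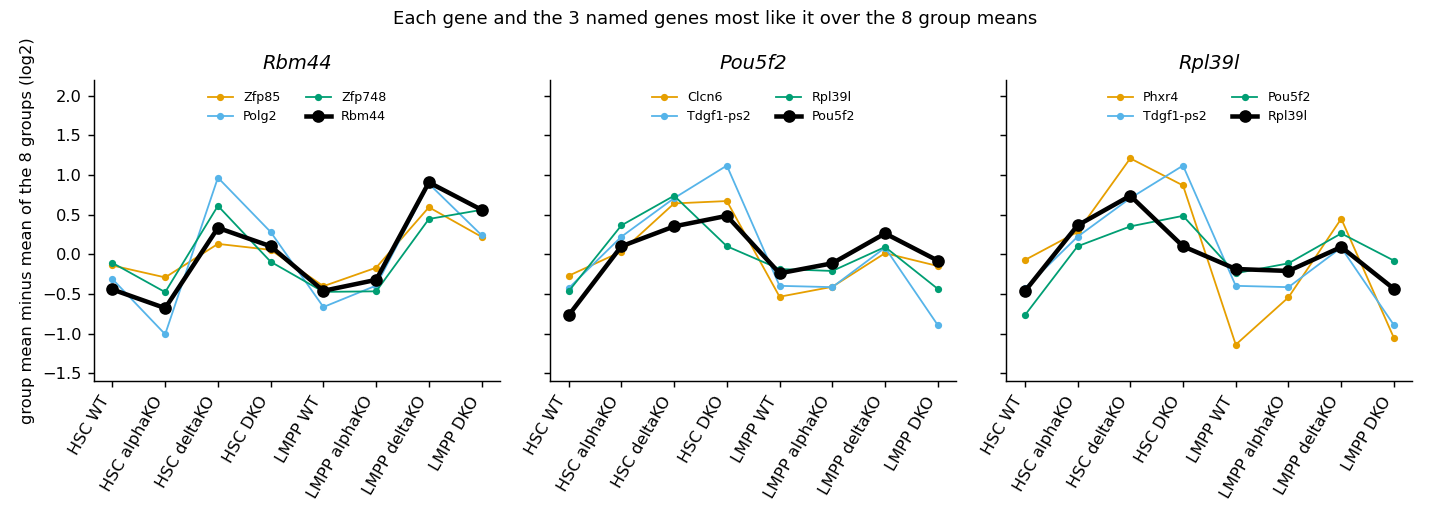
Group mean minus the mean of the 8 groups, on the log2 scale, for each gene (thick black line) and the 3 named genes most like it. Rbm44 and its 3 genes are highest in the groups without p110δ, while Pou5f2 and Rpl39l are followed less closely, with r from 0.73 to 0.78.

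Other germ cell genes and other members of the same families could not be set beside the 3. Of 70 further germline and testis genes in a list made for the purpose, 0 carried a symbol in the files, as did 0 other symbols starting with Rbm, Pou, Rpl or Rps, so all of these were not analysed here. Levels of cell type markers differed between the LMPP groups, and some differed between the HSC groups. Of 11 granulocyte and monocyte markers 8 were named, and their summed level per array was log2 18.94 to 20.02 in LMPP WT, 18.11 to 20.18 in alphaKO, 13.82 to 16.90 in deltaKO and 16.43 to 19.16 in DKO. None of these was at 0, and Ltf, the lowest of them in LMPP deltaKO, had a mean of 7.45 there against 15.33 in LMPP WT. All 8 had lower means in LMPP deltaKO than in LMPP WT, but Ctsg only by 12.02 against 12.76. In LMPP DKO, Ctsg at 13.95, Ms4a3 at 14.68 and Ly6c2 at 16.56 lay above their LMPP WT means. The means of Ltf, S100a8, S100a9, Camp and Wfdc21 lay below WT there. In HSC, where Pou5f2 and Rpl39l differed, the same sum was 12.21 to 14.37 in WT, 9.78 to 13.14 in alphaKO, 10.03 to 14.01 in deltaKO and 9.92 to 14.91 in DKO. The macrophage genes Vcam1 and Slc40a1, 2 of 4 in their list, summed to 7.57 to 8.34 in LMPP WT, 7.41 to 8.73 in alphaKO, 5.64 to 6.30 in deltaKO and 6.16 to 8.44 in DKO. The 3 named HSC markers of 11, Vwf, Tek and Selp, summed to 10.80 to 11.63 in LMPP WT, 11.18 to 12.29 in alphaKO, 11.84 to 12.29 in deltaKO and 12.30 to 12.87 in DKO. The antibody joining chain gene Jchain, the 1 named of 4 B and plasma cell markers, was at 8.39 to 11.001 in LMPP WT, 6.36 to 9.48 in alphaKO, 4.74 to 5.88 in deltaKO and 4.77 to 5.77 in DKO. The LMPP arrays without p110δ, where Rbm44 was high, thus had more of the HSC sum and less Jchain than LMPP WT. Mean Jchain was also lower in LMPP alphaKO, at 7.40 against 9.69 in LMPP WT. The HSC sum of LMPP alphaKO overlapped both WT and deltaKO. The macrophage sum of DKO overlapped WT. Ighv1-5, the 1 named of 8 lymphoid-primed markers, was at 11.21 to 12.21 in LMPP WT and 6.07 to 9.87 in alphaKO. It was at 5.42 to 6.86 in deltaKO and 4.95 to 5.49 in DKO. The 2 named of 5 mast cell and basophil markers summed to 9.10 to 10.27 in LMPP WT, overlapped by every LMPP knockout group. Within the HSC sum, Selp and Tek had higher means, Selp with 11.15 in LMPP WT, 12.02 in deltaKO and 12.58 in DKO. Vwf had no higher mean there, at 5.66 in LMPP WT, 5.43 in deltaKO and 5.58 in DKO. Among HSC arrays the HSC sum was 12.57 to 12.77 in WT and 12.24 to 12.94 in alphaKO. It was 12.42 to 12.91 in deltaKO and 13.11 to 13.20 in DKO, wholly above WT. Vwf means in HSC were 8.80 in WT, 9.08 in alphaKO, 9.85 in deltaKO and 9.79 in DKO. Tek means in HSC ran from 9.84 to 10.28 and Selp means from 12.16 to 12.77. The part of these cells in the values of Rbm44, Pou5f2 and Rpl39l was not tested.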

How the data were processed

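RNA of HSC and LMPP from 4 genotypes was measured on 23 arrays. The authors deposited log2 values, RMA-normalized for each transcript cluster, per the labels, and the log2 scale was read from the range of the values. Affymetrix Expression Console and Transcriptome Analysis Console are the tools in the submitters' processing notes, and the sources used here give neither versions, genome build nor annotation release. Per the file headers, the 6 comparison tables that the authors deposited hold biweight averages (log2), a signed linear fold, a p-value and its FDR-adjusted form. The 2 tables of overlapping genes were not used.

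Groups followed the labelled cell type and genotype, and replicates were numbered in accession order. The members and lists were chosen with earlier results of these data known. Of 72688 rows, 6732 array controls were left out. Clusters with a mean over 23 arrays at or above the median of means, log2 4.95, were tested, which left 32978 of 65956. The filter removed clusters and changed no value, while RMA can shrink differences of low clusters. Limma 3.58.1 in R 4.3.3 (lmFit and eBayes) fitted 1 mean per group over all arrays. P-values were adjusted by Benjamini-Hochberg over all clusters tested, with a threshold of 0.05. Knockout differences were described and not tested, as the genes were chosen on them. The HSC against LMPP contrast was planned as a test and is given as a description, since its averages hold the same groups. Correlations of deviations used 100000 permutations within groups, two-sided, with scipy 1.17.1, and were added after seeing the data. The limma fits were tested on simulated data. The number of arrays limits the precision.

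Symbols came from the authors' tables, in which 561 of 1617 clusters carry one and 524 carry exactly 1. The genes named as most alike were the 5 with the highest Pearson r over the 8 group means among clusters with 1 symbol, without predicted genes, receptor families and small RNAs, and 1 of them is not reported here. Start regions came from RefSeq, GRCm38.p6, which matched 2 of the 3 genes. Motifs were chosen with the sequences in view. Alternatives were the filter, the scaling, the variance model, array weights, identical clusters, sex, subsets of groups and leaving out each array.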

Additional observations from a re-analysis of the deposited data

Results flagged for a closer look

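Rpl39l in DKO against WT went opposite ways in the 2 cell types. All 3 HSC DKO arrays lay above the HSC WT mean, by 0.57 on average on the log2 scale, and all 3 LMPP DKO arrays lay below the LMPP WT mean, with an average of -0.25. The difference between the cell types was not tested, because the gene was chosen on knockout against WT. The LMPP value rests on LMPP WT replicate 2, at 5.60, and was 0.05 without that array, -0.092 after quantile normalization and -0.043 with arrays centred on their medians.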

How the results depend on the processing

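No call changed for Rbm44, Pou5f2 or Rpl39l between the sexes under any alternative run, and none passed. The HSC minus LMPP values are a description, since they hold the groups on which the genes were chosen. None of the 3 genes passed there in any run either, and nothing is read from that. With WT groups alone the HSC minus LMPP values changed sign, to 0.017 for Rbm44, -0.53 for Pou5f2 and -0.28 for Rpl39l. For Rbm44 and Rpl39l that change rests on LMPP WT replicate 2. With only the groups that keep p110δ, Pou5f2 was at -0.16. The count of clusters that differed between cell types was 4646 with the filter at the 75th percentile, which none of the 3 genes passed. It was 2789 with WT groups alone, 4001 without p110δ and 4421 with it. The filter left fewer clusters, while the others used fewer groups in the contrast and all 23 arrays in the fit. Leaving out 1 array gave counts from 6708 to 9944. For sex, array weights gave -0.0072 for Rbm44 and 0.039 for Pou5f2, and HSC arrays alone gave 0.10 for Pou5f2 and 14 clusters, against 5 for LMPP arrays alone. Leaving out each array in turn gave sex differences from -0.082 to 0.22 for Rbm44, from -0.17 to 0.16 for Pou5f2 and from -0.042 to 0.20 for Rpl39l. In those signs the cause was not tested.

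Of 153 recomputed knockout differences 2 moved by more than the pooled SD, both for Rpl39l in HSC alphaKO. They were 0.067 by medians and 0.037 without HSC alphaKO replicate 3. Leaving out another array gave at most 1.24, a move within the pooled SD. Signs changed in 16 of the 153, spread over 7 of the 18 comparisons, 6 of them in LMPP. Scaling moved array medians by -0.35 to 0.12. No within-group correlation passed under the alternatives. No paired analysis was possible because the labels give no replicate number that groups share. Array numbers in the titles place HSC and LMPP of a genotype side by side, but no label says that they share a pool, and all arrays were treated as independent. Groups of 2 or 3 arrays limit the precision.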
